A study of Mus musculus with 16 samples.

Results

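The 77 genes described here carry the symbols of mouse mitochondrial ribosomal proteins. They were taken as every gene whose symbol begins with Mrpl or Mrps followed by a digit in both tables of gene values, which gave 48 Mrpl and 29 Mrps symbols out of 24327 usable rows. Symbols alone decided membership, no measured value was used, and all 77 genes were tested in each table. Mrps36 is counted among the 77, though its product is known as a subunit of the ketoglutarate dehydrogenase complex. RNA-seq of quadriceps muscle was made from HDAC3-KO and wild-type (WT) male mice 4 months old, with strain background C57B/6. The groups were KO after exercise, WT after exercise, KO at rest and WT at rest, with 3 libraries in each. Exercised mice ran 3 times on a treadmill, each run lasting 1 h at a speed of 10 m/min, with pauses of 1 h. Their muscle was collected 2 h after the last run. HDAC3 is a histone deacetylase that works in corepressor complexes. How its deletion was driven, and in which cells, is not given in the sources used here. The labels do not say that the libraries came from separate animals, so the p-values measure only the spread between these samples, which may be technical.

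The mitochondrial ribosome translates the few messenger RNAs that mitochondrial DNA still encodes, all of them for membrane subunits of the respiratory chain and ATP synthase. Its RNAs come from mitochondrial DNA, whereas every one of its proteins is encoded in the nucleus, made in the cytosol and imported. Part of these proteins descend from bacterial ribosomal proteins and the others were added during mitochondrial evolution. Oxidative tissues such as skeletal muscle depend on this machinery to renew the respiratory chain.

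In HDAC3-KO muscle the transcripts of these genes stayed, for the most part, near their WT levels. Mrps18b alone passed the limma test in both conditions. It was 1.71 times as high in KO as in WT muscle at rest and 1.46 times as high after exercise. Mrps2 and Mrpl12 had larger ratios after exercise, at 1.53 and 1.47, without passing. That of Mrpl12 rested on a single KO library. Mrpl30 was 1.32 times as high in KO muscle at rest and passed there. No gene of the 77 fell by the limma test used.

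Values were FPKM, the fragments counted per unit of transcript length and of library size, which the authors deposited for each library. The sum of FPKM over all rows lay between 454359 and 522584 per library, and 10123 to 10544 genes reached 1 FPKM. Read depth is unknown, so no counting error can be given. Hdac3, the deleted gene, had 5.32, 6.37 and 4.13 FPKM in KO libraries after exercise, against 31.0, 32.0 and 27.6 FPKM in WT libraries after exercise. In resting muscle it had 5.51, 6.29 and 8.16 FPKM in KO libraries, against 33.3, 31.0 and 23.7 FPKM in WT libraries. Every KO library was below every WT library, so the values go with the labels. Genotypes were compared within each condition with limma on log2(FPKM + 1), and a gene is said to have risen or fallen where the Benjamini-Hochberg adjusted p over all genes tested was at or under 0.05. Differences are KO minus WT on that scale, on which the added 1 makes changes of low genes look smaller than they are. The 2 conditions were deposited as separately normalized tables, so levels set side by side across them were not tested for an effect of running.

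Because FPKM is per length, levels can be compared between genes, with a limit where genes overlap. In the RefSeq annotation of GRCm38.p6, 25 of the 77 genes overlap another gene, 20 of them a protein-coding one. Strandedness is not given, so reads from such overlaps cannot be told apart. The median over the 77 genes was 30.7 FPKM, taking each gene's mean over the 12 libraries, against 8.69 FPKM for the 8854 genes tested in both tables. Most of them lay close together: 64 had means between 10 and 100 FPKM, 6 were under 10 FPKM and 7 were over 100 FPKM. Mrpl42, a large-subunit protein with no bacterial counterpart, was highest at 443 FPKM, and its single libraries lay between 357 and 504 FPKM. Mrps21, a small-subunit protein of bacterial descent, followed at 349 FPKM (289 to 389 FPKM). Next came the large-subunit proteins Mrpl33 at 204 FPKM (177 to 242 FPKM), Mrpl30 at 174 FPKM (142 to 208 FPKM) and Mrpl23, which sits at the exit of the polypeptide tunnel, at 124 FPKM (102 to 149 FPKM). Neighbours in this order overlapped in their ranges except Mrps21 and Mrpl33. At the low end stood the large-subunit proteins Mrpl19 at 5.34 FPKM, Mrpl17 at 5.36 FPKM and Mrpl57 at 6.84 FPKM, and no gene of the 77 was under 4.42 FPKM in any library.

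Level differed more within the structural classes than between them. The 30 large-subunit proteins with a bacterial counterpart had a median of 33.0 FPKM, and the 20 large-subunit proteins particular to mitochondria had 27.3 FPKM. The 16 small-subunit proteins with a bacterial counterpart had 25.5 FPKM, and the 10 small-subunit proteins particular to mitochondria had 22.1 FPKM. The last gene, Mrps36 at 72.7 FPKM, was put in no class, since its product is known as a subunit of the ketoglutarate dehydrogenase complex. Beside the genes already named, the classes were led by Mrpl51 (105 FPKM) and Mrpl54 (65.6 FPKM) among the mitochondria-specific large-subunit proteins. Mrps16 (79.4 FPKM) and Mrps18c (66.6 FPKM) came next among the small-subunit proteins of bacterial descent. Mrps23 (50.3 FPKM), Mrps18b (49.1 FPKM) and Mrps33 (45.1 FPKM) led the mitochondria-specific small-subunit proteins.

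**Figure D1:**
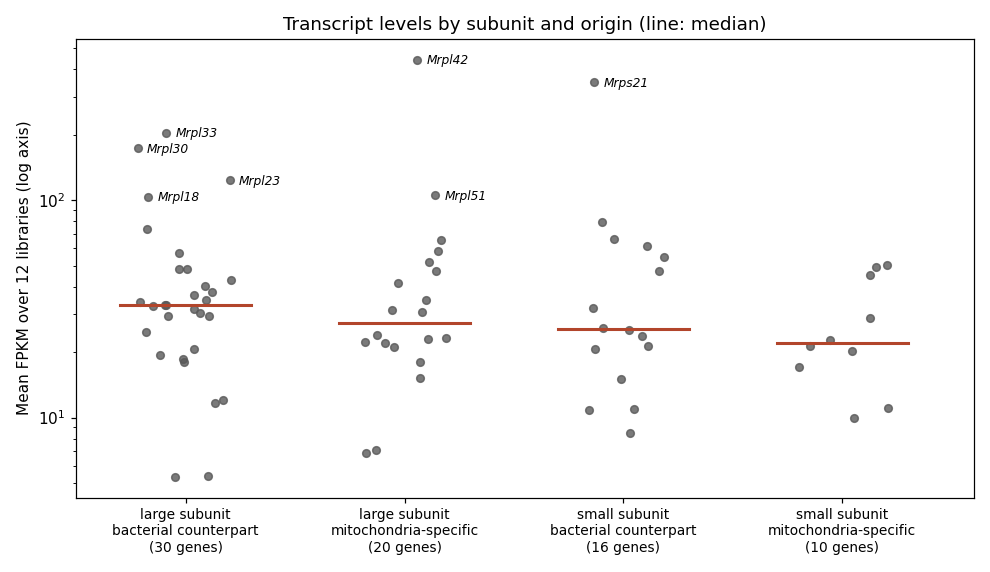
Mean FPKM over the 12 libraries (log axis) of 76 genes in their structural classes, 1 point per gene, with the class median as a line. The medians lie between 22.1 and 33.0 FPKM, while single genes reach from 5.34 FPKM (Mrpl19) to 443 FPKM (Mrpl42).

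Summed over the 77 genes, the FPKM after exercise came to 3397, 3806 and 3917 in KO libraries, against 3641, 3743 and 3796 in WT libraries. At rest the sums were 3795, 3826 and 3856 in KO libraries, against 3486, 3552 and 3680 in WT libraries. The genotypes overlapped after exercise and did not overlap at rest. As a share of all FPKM, which is the same comparison freed of each library's total, the genes took 0.779% ± 0.0331 in KO muscle and 0.735% ± 0.0442 in WT muscle after exercise (SD, n = 3 each). At rest they took 0.791% ± 0.0222 in KO muscle and 0.763% ± 0.0179 in WT muscle (SD, n = 3 each). These shares overlapped between genotypes in both conditions. Sums lean on the few most abundant genes, and in whole muscle fewer cells of a type and less RNA per cell cannot be told apart.

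The median over the genes gives each of them the same weight. Relative to the WT mean of the same table, the median log2 ratio of the 77 genes was -0.09, 0.05 and 0.10 in KO libraries after exercise, against -0.02, -0.01 and -0.01 in WT libraries after exercise. It was 0.06, 0.08 and 0.13 in KO libraries at rest, against -0.03, -0.00 and 0.02 in WT libraries at rest. The 3 KO libraries at rest all lay above the 3 WT libraries, whereas the first KO library after exercise lay below all 3 WT libraries and the other two above them. Over all genes tested, the same median stayed between -0.02 and 0.02 in every library.

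**Figure D2:**
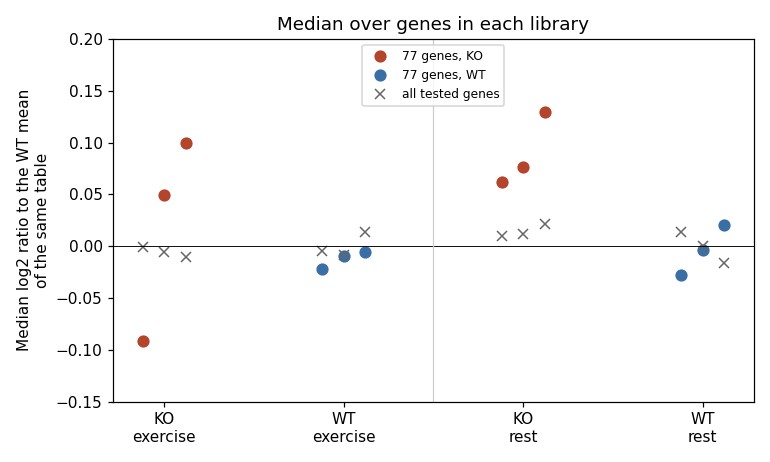
Median log2 ratio to the WT mean of the same table, for the 77 genes (filled points) and for all tested genes (crosses), in each of the 12 libraries. The 77 genes lie between 0.06 and 0.13 in KO libraries at rest, and between -0.09 and 0.10 in KO libraries after exercise, where they fall on both sides of the WT libraries.

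In the comparison after exercise, 1 of the 77 genes rose in KO muscle, Mrps18b, and none fell. Of the 9037 genes tested there, 1.58% rose and 2.15% fell. At rest 2 rose, Mrps18b and Mrpl30, and none fell, with 3.04% and 1.67% of the 9204 tested genes called in those directions. The counts of 1 and 2 are 1.3% and 2.6% of the 77 genes, just below the share over all genes in the same direction. At an unadjusted limma p under 0.05, a looser mark, 12 of the 77 genes passed after exercise (15.6%, where 19.9% of all genes did) and 15 at rest (19.5%, where 21.5% of all genes did). After exercise 7 of these were higher (9.09%, where 9.39% of all genes were so) and 5 lower in KO muscle (6.49%, where 10.5% of all genes were so). At rest 11 were higher (14.3%, where 12.2% of all genes were so) and 4 lower (5.19%, where 9.22% of all genes were so). By the q of the authors' deposited table, at or under 0.05, Mrps18b, Mrps2 and Mrpl12 were higher and none lower after exercise, where 4.66% of all tested genes were called higher and 4.91% lower. By the q of the authors' deposited table at rest, Mrps18b and Mrpl47 were higher and Mrpl12 lower, where 5.9% of all tested genes were called higher and 4.94% lower.

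The differences themselves were small. After exercise they ran from -0.47 to 0.56 with a median of 0.03, and 63 of 77 were smaller than 0.3 in either direction. At rest they ran from -0.59 to 0.75 with a median of 0.09, and 64 of 77 were smaller than 0.3. The share of all tested genes under 0.3 was not counted, so these counts do not set the 77 genes apart. The median SE of a difference was 0.14 after exercise and 0.13 at rest. The median over all genes tested was -0.00 after exercise and 0.01 at rest. KO was the higher genotype for 43 of the 77 genes after exercise (55.8%, where 49.9% of all tested genes were higher) and for 48 at rest (62.3%, where 51.7% of all tested genes were higher). Libraries that did not overlap were about as common as over all genes where KO was higher, and less common by count where KO was lower. All 3 KO libraries were above all 3 WT libraries for 9 genes after exercise (11.7%, where 12.4% of all tested genes were so) and for 13 at rest (16.9%, where 15.6% were so). All 3 were below for 4 after exercise (5.19%, where 13.7% were so) and for 5 at rest (6.49%, where 12.4% were so).

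**Figure D3:**
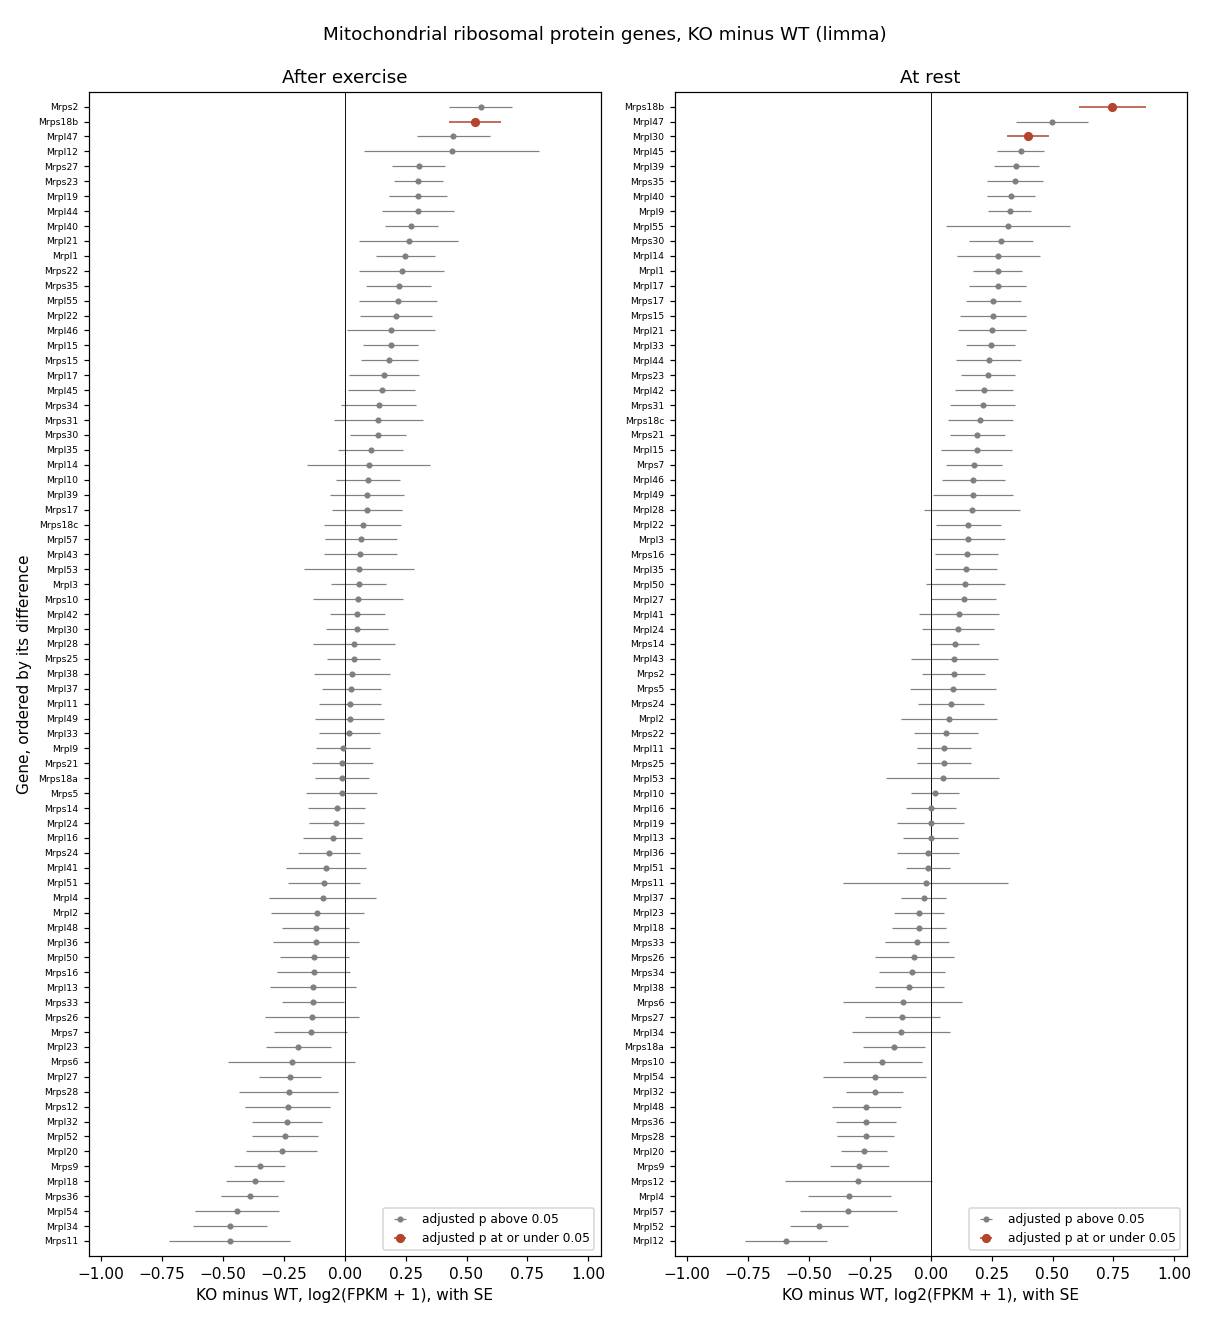
KO minus WT difference of each of the 77 genes on the log2(FPKM + 1) scale with its SE, after exercise and at rest, ordered by size. Coloured points passed the limma test: Mrps18b in both conditions and Mrpl30 at rest. Most points lie within 0.3 of 0.

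Mrps18b encodes a protein of the small subunit and belongs to a family of 3 related proteins, Mrps18a in the large subunit and Mrps18b and Mrps18c in the small subunit, all related to a single bacterial ribosomal protein. Structural nomenclature counts Mrps18b among the proteins particular to mitochondria. The 300 bases around its start, from 250 before to 50 after, are shown because it is the gene that rose in both conditions. They lie at chr17:35916391-35916690 on the minus strand of GRCm38.p6, as given by RefSeq.
Mrps18b: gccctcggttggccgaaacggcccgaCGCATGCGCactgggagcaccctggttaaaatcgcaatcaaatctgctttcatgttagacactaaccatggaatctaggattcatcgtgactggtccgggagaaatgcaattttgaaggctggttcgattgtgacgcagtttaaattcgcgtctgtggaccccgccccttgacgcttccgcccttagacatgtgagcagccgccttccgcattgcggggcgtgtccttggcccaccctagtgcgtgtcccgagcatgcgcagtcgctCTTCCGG
The capitals mark, from left to right, CGCATGCGC, the reverse complement of the NRF1 sequence GCGCATGCG, and CTTCCGG, the reverse complement of the ETS-family sequence CCGGAAG, which stands in the last bases and so after the start.

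After exercise Mrps18b had 62.2, 57.6 and 57.5 FPKM in KO libraries, against 38.3, 39.9 and 43.4 FPKM in WT libraries. In resting muscle it had 69.4, 50.5 and 62.9 FPKM in KO libraries, against 32.8, 36.0 and 38.4 FPKM in WT libraries. In both conditions the lowest KO library was above the highest WT library, and the KO libraries at rest were the most spread. After exercise the means were 59.1 ± 2.68 FPKM in KO muscle and 40.5 ± 2.64 FPKM in WT muscle (SD, n = 3 each), a difference of 0.53 on the log2(FPKM + 1) scale with an SE of 0.11 and a limma adjusted p of 0.0388. At rest the means were 60.9 ± 9.59 FPKM in KO muscle and 35.7 ± 2.83 FPKM in WT muscle (SD, n = 3 each), a difference of 0.75 with an SE of 0.14 and a limma adjusted p of 0.0275. In the authors' deposited table its q was 0.0315 after exercise and 0.00119 at rest.

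The calls of Mrps18b depended on single libraries and on the filter. After exercise the limma adjusted p lay between 0.0779 and 0.123 when any single library of the 6 was left out, with differences of 0.50 to 0.58. At rest the call was lost without KO library 1 (limma adjusted p 0.0843), KO library 3 (0.107), WT library 1 (0.0689) or WT library 2 (0.109), and kept without KO library 2 (0.0298) or WT library 3 (0.0459). The difference at rest lay between 0.65 and 0.87 in these fits. With no filter on low values the limma adjusted p was 0.0892 after exercise and 0.151 at rest, and with no variance trend it was 0.0546 after exercise.

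The other proteins of the family did not pass the limma test. Mrps18a averaged 59.9 ± 2.06 FPKM in KO muscle and 60.5 ± 5.23 FPKM in WT muscle after exercise, and 53.4 ± 4.96 FPKM in KO muscle and 59.5 ± 8.20 FPKM in WT muscle at rest (SD, n = 3 each). Mrps18c averaged 63.9 ± 6.65 FPKM in KO muscle and 61.2 ± 12.3 FPKM in WT muscle after exercise, and 75.6 ± 6.39 FPKM in KO muscle and 65.8 ± 9.71 FPKM in WT muscle at rest (SD, n = 3 each). Their differences were -0.01 and 0.07 after exercise and -0.15 and 0.20 at rest, with limma adjusted p between 0.424 and 0.968, and the libraries of the genotypes overlapped. In WT muscle Mrps18b was the lowest of the 3 in both conditions, and in KO muscle it was close to Mrps18a. In the RefSeq annotation of GRCm38.p6 Mrps18b overlaps the noncoding gene Gm16279, and since strandedness is not given, reads from the overlap cannot be told apart. Of the coding genes beside it, Ppp1r10, a phosphatase regulatory subunit, averaged 4.30 ± 0.433 FPKM in KO muscle and 3.39 ± 0.196 FPKM in WT muscle after exercise (limma adjusted p 0.302, n = 3 each). All 3 KO libraries of Ppp1r10 were above the WT libraries after exercise. At rest Ppp1r10 averaged 3.58 ± 0.722 FPKM in KO muscle and 3.56 ± 0.542 FPKM in WT muscle, with overlap (SD, n = 3 each). Atat1, a tubulin acetyltransferase on the other side, was not among the genes tested. It had 0.50, 0.254 and 0.316 FPKM in KO libraries after exercise, against 1.24, 1.25 and 0.752 FPKM in WT libraries, without overlap. At rest Atat1 had 0.682, 0.325 and 1.07 FPKM in KO libraries, against 0.781, 1.19 and 1.12 FPKM in WT libraries, with overlap.

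Mrpl30 encodes a large-subunit protein with a bacterial counterpart and is among the 4 most abundant of the 77 transcripts. Its promoter window is shown because it is the other gene that rose. It lies at chr1:37890227-37890526 on the plus strand of GRCm38.p6, from RefSeq, and none of the motifs searched was found in it, so it has no capitals.
Mrpl30: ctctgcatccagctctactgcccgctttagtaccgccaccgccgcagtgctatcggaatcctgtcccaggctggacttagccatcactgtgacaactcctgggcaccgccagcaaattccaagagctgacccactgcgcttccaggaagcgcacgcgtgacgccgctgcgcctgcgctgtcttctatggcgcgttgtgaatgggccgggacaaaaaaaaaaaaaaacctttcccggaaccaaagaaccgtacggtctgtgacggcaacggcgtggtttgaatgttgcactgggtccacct
At rest Mrpl30 had 192, 192 and 191 FPKM in KO libraries, against 144, 142 and 150.1 FPKM in WT libraries. The 3 KO libraries were almost equal and all above the WT libraries. The means were 192 ± 0.450 FPKM in KO muscle and 145 ± 4.29 FPKM in WT muscle (SD, n = 3 each), a difference of 0.40 with an SE of 0.09 and a limma adjusted p of 0.0448. In the authors' deposited table its q at rest was 0.0744. After exercise it had 161, 179 and 208 FPKM in KO libraries, against 165, 171 and 191 FPKM in WT libraries, and the genotypes overlapped. The difference there was 0.05 with an SE of 0.13 and a limma adjusted p of 0.864.

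The call of Mrpl30 at rest lay just inside the threshold. With any single library of the 6 left out, the limma adjusted p was between 0.0603 and 0.18, with differences of 0.38 to 0.42. It was 0.124 after quantile normalization, where the difference was 0.29, 0.055 after median centring and 0.0694 with no variance trend.

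**Figure D4:**
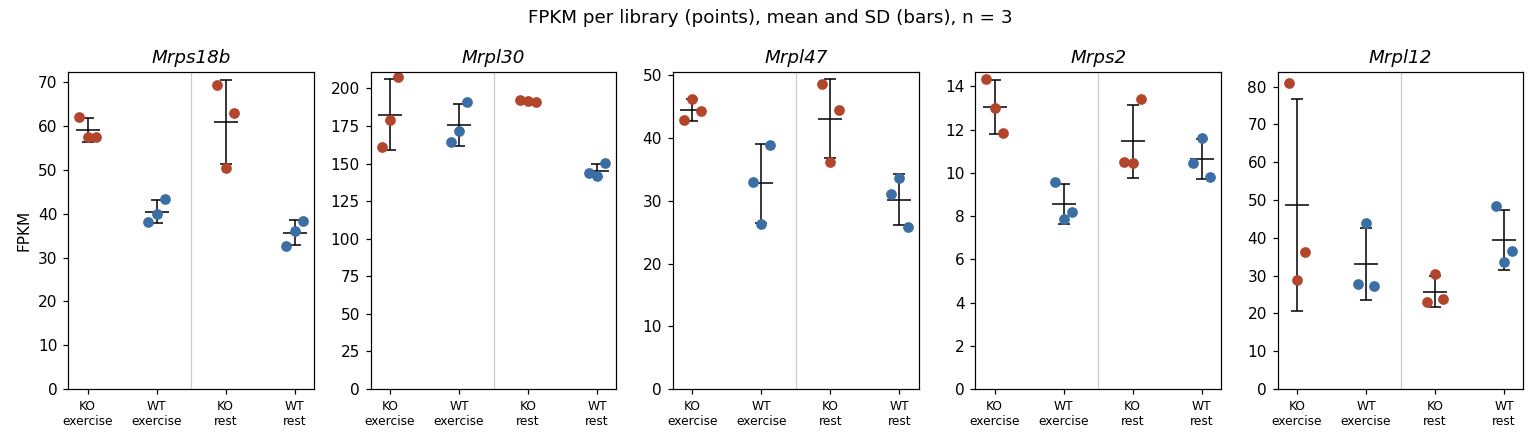
FPKM of Mrps18b, Mrpl30, Mrpl47, Mrps2 and Mrpl12 in each library (points) with the mean and SD of each group (bars, n = 3). Mrps18b and Mrpl47 are higher in every KO library than in any WT library in both conditions, Mrpl30 at rest and Mrps2 after exercise, while Mrpl12 is below WT at rest and spread from 28.9 to 80.9 FPKM in KO libraries after exercise.

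Mrpl47, a large-subunit protein near the exit of the polypeptide tunnel, was higher in KO muscle in both conditions without passing the limma test. After exercise it had 42.9, 46.3 and 44.4 FPKM in KO libraries, against 33.1, 26.4 and 38.9 FPKM in WT libraries. In resting muscle it had 48.6, 36.3 and 44.4 FPKM in KO libraries, against 31.1, 33.7 and 25.8 FPKM in WT libraries. The genotypes did not overlap in either condition. The means were 44.5 ± 1.70 FPKM in KO muscle and 32.8 ± 6.29 FPKM in WT muscle after exercise, a difference of 0.45 with an SE of 0.15 (limma adjusted p 0.155, n = 3 each). At rest they were 43.1 ± 6.28 FPKM in KO muscle and 30.2 ± 4.04 FPKM in WT muscle, a difference of 0.50 with an SE of 0.15 (limma adjusted p 0.107, n = 3 each). In the authors' deposited table its q was 0.129 after exercise and 0.0480 at rest. Mrpl45, another protein of the tunnel exit, which helps to hold the ribosome at the inner membrane, averaged 38.6 ± 2.91 FPKM in KO muscle and 29.6 ± 0.637 FPKM in WT muscle at rest (difference 0.37, limma adjusted p 0.0769, n = 3 each). After exercise its genotypes overlapped, with a difference of 0.15. For Mrpl23, also at the exit, the differences were -0.19 after exercise and -0.05 at rest, with overlap in both.

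Mrps2, a small-subunit protein of bacterial descent, had 14.3, 13.0 and 11.8 FPKM in KO libraries after exercise, against 9.60, 7.87 and 8.18 FPKM in WT libraries. It was the largest positive difference of the 77 genes there, at 0.56 with an SE of 0.13, and the limma adjusted p was 0.0591. The fit over all 12 libraries, which shares their spread, gave a limma adjusted p of 0.0212, and its q in the authors' deposited table was 0.0176. At rest Mrps2 had 10.5, 10.5 and 13.4 FPKM in KO libraries, against 10.5, 11.6 and 9.81 FPKM in WT libraries. The genotypes overlapped at rest, and the difference was 0.09.

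Mrpl12, the stalk protein through which translation factors bind, had a positive difference after exercise and a negative one at rest, neither of which passed the limma test. After exercise it had 80.9, 28.9 and 36.3 FPKM in KO libraries, against 27.8, 43.9 and 27.3 FPKM in WT libraries. A single KO library was far above all others and the genotypes otherwise overlapped. The difference was 0.44 with an SE of 0.36 (limma adjusted p 0.54), and without KO library 1 it was 0.01 (limma adjusted p 0.994). In the authors' deposited table its q after exercise was 0.0431. At rest it had 22.9, 30.4 and 23.7 FPKM in KO libraries, against 48.4, 33.5 and 36.4 FPKM in WT libraries. All KO libraries were below the WT libraries there, and the difference of -0.59 was the largest negative one, with an SE of 0.17 and a limma adjusted p of 0.0975. In the authors' deposited table its q at rest was 0.0110.

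None of the next largest differences passed the limma test. After exercise Mrps27, a small-subunit protein that binds RNA, averaged 13.0 ± 0.538 FPKM in KO muscle and 10.3 ± 0.496 FPKM in WT muscle, and Mrps23 averaged 56.4 ± 2.42 FPKM in KO muscle and 45.5 ± 0.916 FPKM in WT muscle (SD, n = 3 each). Both differences were 0.30, and neither gene's genotypes overlapped. The large-subunit genes Mrpl19 and Mrpl44 also had differences of 0.30 after exercise, likewise without overlap. On the lower side after exercise stood Mrps11 (-0.47), Mrpl34 (-0.47), Mrpl54 (-0.44), Mrps36 (-0.39) and Mrpl18 (-0.37), with limma adjusted p between 0.121 and 0.338. Mrpl18, a large-subunit protein of bacterial descent, averaged 90.9 ± 10.4 FPKM in KO muscle and 117 ± 5.83 FPKM in WT muscle, and Mrps36 averaged 60.9 ± 1.84 FPKM in KO muscle and 80.4 ± 9.23 FPKM in WT muscle (SD, n = 3 each). For Mrpl34, Mrps36 and Mrpl18 the genotypes did not overlap, and for Mrps11 and Mrpl54 they did.

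At rest Mrpl39, a large-subunit protein, averaged 18.0 ± 0.398 FPKM in KO muscle and 13.9 ± 0.732 FPKM in WT muscle (difference 0.35, limma adjusted p 0.0818, n = 3 each). The lower side at rest held, after Mrpl12, Mrpl52 (-0.46), Mrpl57 (-0.34), Mrpl4 (-0.33) and Mrps12 (-0.30), with limma adjusted p between 0.0781 and 0.622. Mrpl52, a large-subunit protein particular to mitochondria, averaged 34.9 ± 1.02 FPKM in KO muscle and 48.6 ± 6.86 FPKM in WT muscle (SD, n = 3 each) without overlap. For Mrps12, a protein of the decoding centre, WT libraries ran from 17.6 to 39.1 FPKM and KO libraries from 16.1 to 28.9 FPKM. The genotypes overlapped.

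By class, the median difference after exercise was 0.03 for large-subunit proteins with a bacterial counterpart and 0.04 for those particular to mitochondria. It was -0.05 for small-subunit proteins with a bacterial counterpart, where 5 of 16 genes were above 0, and 0.18 for those particular to mitochondria, where 8 of 10 were. At rest the same medians were 0.12, 0.11, 0.09 and 0.06. The summed FPKM of the 10 mitochondria-specific small-subunit genes after exercise lay between 294 and 298 in KO libraries, against 252 to 260 in WT libraries. That sum includes Mrps18b and Mrps23, and the sums of the other classes overlapped after exercise. At rest the sums did not overlap for the large-subunit genes with a bacterial counterpart, at 1433 to 1484 FPKM in KO libraries and 1337 to 1390.1 FPKM in WT libraries. Nor did they for the mitochondria-specific large-subunit genes, at 1099.8 to 1136 FPKM in KO libraries and 1053 to 1066 FPKM in WT libraries. Both small-subunit classes overlapped at rest, the mitochondria-specific one at 265 to 310.5 FPKM in KO libraries and 244 to 265 FPKM in WT libraries. These class sums were not divided by each library's total FPKM. For the 77 genes together, the sums at rest did not overlap but the shares of the total did. No class was tested as a whole.

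The comparisons at rest and after exercise used different libraries, with no control shared. Across the 77 genes the 2 sets of differences had a Pearson r of 0.52 and a Spearman rho of 0.58, as a description over genes that are not independent replicates. Over the 8854 genes tested in both tables r was 0.61, and over the 75 genes left without Mrps18b and Mrpl12 it was 0.61 too. KO was higher in both conditions for 35 genes (45.5%, where 35.4% of all 8854 genes were so) and lower in both for 21 (27.3%, where 33.3% were so), while 13 were higher at rest only and 8 after exercise only. The genotypes did not overlap, with KO higher, in both conditions for 3 genes, Mrpl40, Mrpl47 and Mrps18b (3.9%, where 6.36% of all 8854 genes were so). Mrps9 was the 1 gene for which KO was lower without overlap in both (1.3%, where 5.84% were so).

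Mrpl40, a large-subunit protein, averaged 24.9 ± 0.986 FPKM in KO muscle and 20.4 ± 1.48 FPKM in WT muscle after exercise (SD, n = 3 each). At rest it averaged 26.4 ± 2.09 FPKM in KO muscle and 20.8 ± 0.483 FPKM in WT muscle (SD, n = 3 each). Its limma adjusted p was 0.218 after exercise and 0.109 at rest. Mrps9, a small-subunit protein of bacterial descent, had 17.6, 18.8 and 19.5 FPKM in KO libraries after exercise, against 23.5, 24.7 and 23.6 FPKM in WT libraries. At rest it had 16.8, 17.7 and 18.6 FPKM in KO libraries, against 18.7, 23.2 and 24.1 FPKM in WT libraries. The WT level was closest to KO in the first WT library at rest, and the limma adjusted p was 0.124 after exercise and 0.217 at rest.

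**Figure D5:**
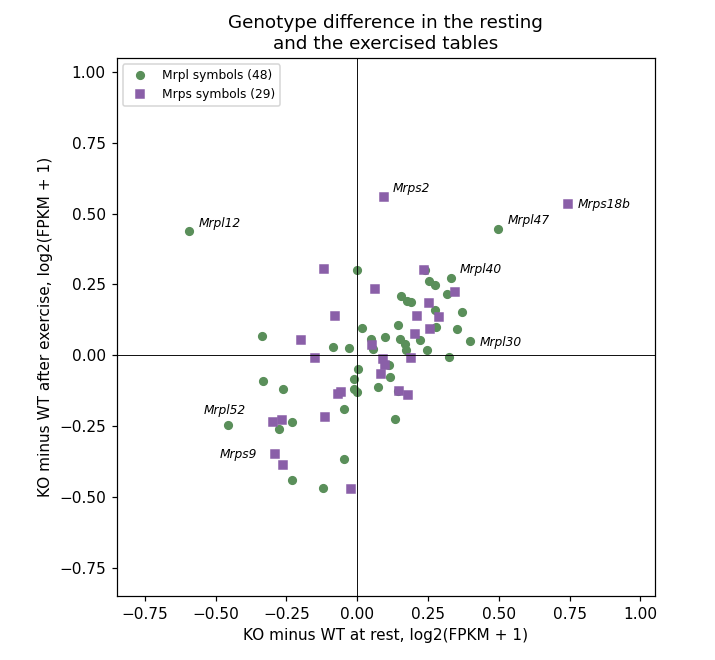
KO minus WT difference at rest (x axis) against the difference after exercise (y axis), log2(FPKM + 1) scale, for 48 Mrpl genes (circles) and 29 Mrps genes (squares). Mrps18b is the farthest point at the upper right, and Mrpl12 lies at -0.59 at rest and 0.44 after exercise. Most of the other genes lie near 0.

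Whether the genotype difference itself changed with exercise was tested as an interaction in 1 limma fit of all 12 libraries. It passed the adjusted threshold for none of the 77 genes and for 0% of the 8854 genes tested, and for 5 of the 77 (6.49%) and 4.89% of all genes at an unadjusted p under 0.05. Those 5 were Mrpl12 (1.03), Mrps2 (0.46), Mrps27 (0.42), Mrpl30 (-0.35) and Mrpl9 (-0.33), each with a limma adjusted p of 0.923. For Mrps18b the interaction was -0.21 with an SE of 0.17 and a limma adjusted p of 0.923. The call of Mrpl30 at rest and its miss after exercise therefore do not stand as a shown difference between the conditions. Mrpl9 is a large-subunit protein of bacterial descent. At rest it had 38.3, 40.6 and 37.2 FPKM in KO libraries, against 30.3, 30.7 and 31.0 FPKM in WT libraries. After exercise its genotypes overlapped around 35 FPKM.

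The promoter windows of the genes were searched on both strands for 6 short sequences bound by known regulators of nuclear-encoded mitochondrial or stress genes, spelled out in full. RefSeq gave 74 windows for 68 of the 77 genes. The ETS-family core CCGGAAG was in 25 of them (33.8%), against 8.86% of the 32851 windows of all genes, which include noncoding and predicted ones. The YY1 sequence AAGATGGCG was in 8 (10.8%, against 1.40% of all windows) and the NRF1 sequence GCGCATGCG in 7 (9.46%, against 1.75%). The CRE palindrome TGACGTCA was in 2 (2.7%, against 1.79%). The ERR sequence TCAAGGTCA (0.423% of all windows) and the ATF4 sequence TGATGNAA (3.97% of all windows) were in none. These are matches of letters and no binding was measured. Of the 5 genes shown by library above, Mrps18b held the 2 matches shown and Mrpl30, Mrpl47, Mrpl12 and Mrps2 held none.

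Genes that serve the same ribosome under other symbols were taken from lists. Of 6 mitochondrial ribosomal proteins with other symbols, none passed after exercise and Chchd1 rose at rest. At an unadjusted limma p under 0.05, 2 of the 6 were higher after exercise (9.39% of all genes were so) and 3 at rest (12.2% of all genes), and none was lower. Their median difference was 0.04 after exercise, with 4 of 6 above 0, and 0.27 at rest, with 6 of 6 above 0. Summed, they came to 306 to 412 FPKM in KO libraries and 315 to 346 FPKM in WT libraries after exercise, with overlap, and to 385 to 390 FPKM in KO libraries and 284 to 299.7 FPKM in WT libraries at rest, without overlap. Chchd1, a small-subunit protein, made up the largest part of these sums. It averaged 216 ± 6.95 FPKM in KO muscle and 159 ± 4.09 FPKM in WT muscle at rest, a difference of 0.44 (limma adjusted p 0.0348, n = 3 each). After exercise it averaged 196 ± 41.1 FPKM in KO muscle and 184 ± 17.1 FPKM in WT muscle (SD, n = 3 each). Ptcd3, another small-subunit protein, averaged 75.4 ± 8.95 FPKM in KO muscle and 53.3 ± 1.52 FPKM in WT muscle after exercise, and 72.6 ± 3.18 FPKM in KO muscle and 50.8 ± 9.91 FPKM in WT muscle at rest, with limma adjusted p of 0.0698 and 0.0965 (n = 3 each). Its libraries did not overlap between genotypes in either condition. The q of Ptcd3 in the authors' deposited table was 0.0404 after exercise and 0.0105 at rest, and that of Chchd1 at rest was 0.0369.

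Of 28 assembly factors and ribosomal RNA modifying enzymes, none passed after exercise, and Trub2 and Malsu1 rose at rest. At an unadjusted limma p under 0.05, 4 were higher and 1 lower after exercise (9.39% and 10.5% of all genes were so), and 9 were higher and 1 lower at rest (12.2% and 9.22% of all genes). Their median difference was 0.23 after exercise and 0.20 at rest, and 21 of the 28 were above 0 in each condition, where 49.9% of all genes were so after exercise and 51.7% at rest. Their summed FPKM did not overlap between genotypes, at 351 to 359.7 FPKM in KO libraries and 308 to 315 FPKM in WT libraries after exercise, and at 358 to 359 FPKM in KO libraries and 299 to 309 FPKM in WT libraries at rest. Trub2, a pseudouridine synthase of mitochondrial RNA, had 12.8, 12.1 and 12.6 FPKM in KO libraries at rest, against 7.41, 8.17 and 7.19 FPKM in WT libraries. The genotypes were well apart, with a difference of 0.65 and a limma adjusted p of 0.0184, and after exercise the difference was 0.59 with a limma adjusted p of 0.0699. Malsu1, an assembly factor of the large subunit, averaged 69.6 ± 8.27 FPKM in KO muscle and 47.7 ± 3.35 FPKM in WT muscle at rest (limma adjusted p 0.0489, n = 3 each). After exercise it averaged 63.1 ± 9.19 FPKM in KO muscle and 51.1 ± 6.14 FPKM in WT muscle (SD, n = 3 each). Spg7, a protease that also processes a ribosomal protein, was among the most abundant of the list and had differences of -0.33 after exercise and -0.07 at rest. Trub2 had, in the authors' deposited table, a q of 0.00683 after exercise and 0.00119 at rest, Malsu1 of 0.0139 at rest, and the methyltransferase Mrm1, which was lower in KO muscle at rest, of 0.0397. Mrm1 averaged 2.11 ± 0.498 FPKM in KO muscle and 3.62 ± 0.310 FPKM in WT muscle at rest (SD, n = 3 each). After exercise Mrm1 was higher in KO muscle with overlap, at 5.31 ± 0.672 FPKM against 3.90 ± 1.23 FPKM in WT muscle (SD, n = 3 each).

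No mitochondrial translation factor passed, of 15 tested after exercise (1 lower at an unadjusted limma p under 0.05) and 16 at rest (0 at that mark). The authors' deposited table called none of them at a q of 0.05. The elongation factor Tufm averaged 55.7 ± 4.22 FPKM in KO muscle and 51.8 ± 8.30 FPKM in WT muscle after exercise, and 52.5 ± 6.67 FPKM in KO muscle and 45.4 ± 3.39 FPKM in WT muscle at rest (SD, n = 3 each). Slirp, which stabilizes mitochondrial messenger RNA, differed by -0.27 after exercise and -0.06 at rest. Among 9 genes of mitochondrial DNA transcription, Tfam rose in both conditions. Tfam, which packages mitochondrial DNA and starts its transcription, had 22.2, 26.0 and 23.7 FPKM in KO libraries after exercise, against 16.1, 15.0 and 14.4 FPKM in WT libraries. In resting muscle it had 26.2, 30.0 and 25.9 FPKM in KO libraries, against 15.3, 15.8 and 14.8 FPKM in WT libraries. Its differences were 0.63 (limma adjusted p 0.0313) and 0.79 (limma adjusted p 0.0141), and the genotypes were apart in both. Tfb2m, its partner in transcription, averaged 31.8 ± 3.21 FPKM in KO muscle and 26.7 ± 1.57 FPKM in WT muscle after exercise, and 32.6 ± 4.07 FPKM in KO muscle and 23.9 ± 2.61 FPKM in WT muscle at rest (SD, n = 3 each) and did not pass. Tfam had, in the authors' deposited table, a q of 0.00132 after exercise and 0.00119 at rest, Tfb2m of 0.0408 at rest, and Peo1, the mitochondrial DNA helicase, of 0.0395 after exercise with KO higher.

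None of the nuclear regulators of mitochondrial genes passed, of 8 tested after exercise (1, Esrra, lower at an unadjusted limma p under 0.05) and 7 at rest (0 at that mark). The authors' deposited table called none of them at a q of 0.05. The coactivator Ppargc1a averaged 39.8 ± 19.5 FPKM in KO muscle and 33.4 ± 27.1 FPKM in WT muscle after exercise, and 15.0 ± 2.86 FPKM in KO muscle and 11.8 ± 2.66 FPKM in WT muscle at rest (SD, n = 3 each). The nuclear receptor Esrra averaged 17.6 ± 5.89 FPKM in KO muscle and 26.0 ± 5.79 FPKM in WT muscle after exercise, and 12.6 ± 3.92 FPKM in KO muscle and 22.4 ± 14.4 FPKM in WT muscle at rest (SD, n = 3 each). Libraries overlapped for both genes. The calls in these lists were sensitive to single libraries. Those of Chchd1 and Malsu1 at rest and of Tfam after exercise were lost with any single library of the 6 left out, at limma adjusted p of 0.0601 to 0.149, 0.0783 to 0.145 and 0.0584 to 0.107. Tfam at rest was lost without KO library 3 (limma adjusted p 0.0507) or WT library 2 (0.0695), and Trub2 at rest without KO library 1 (0.0634), KO library 3 (0.0761) or WT library 2 (0.0754). After quantile normalization Chchd1 and Malsu1 at rest had limma adjusted p of 0.0931 and 0.0917, and with no filter Malsu1 at rest had 0.166 and Tfam after exercise 0.094. The fit of all 12 libraries gave Chchd1 at rest a limma adjusted p of 0.0804 and Trub2 after exercise 0.0131.

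Markers of the cell types that whole muscle holds were summed per library. The 8 myofibre markers came to 60569 to 69892 FPKM in KO libraries and 67909 to 81942 FPKM in WT libraries after exercise, and 59489 to 74548 FPKM in KO libraries and 60400 to 69045 FPKM in WT libraries at rest, so the samples were muscle by these markers. The 7 immune markers came to 46.7 to 374 FPKM in KO libraries and 29.9 to 37.9 FPKM in WT libraries after exercise, without overlap, and 31.0 to 61.6 FPKM in KO libraries and 51.6 to 519 FPKM in WT libraries at rest. The upper ends came from 1 library each, through S100a8 and S100a9: KO library 3 after exercise with 156 and 148 FPKM, and WT library 2 at rest with 239.5 and 222 FPKM. In the other libraries neither gene was over 6.41 FPKM. The 6 fibroblast markers came to 270 to 456 FPKM in KO libraries and 278 to 403 FPKM in WT libraries after exercise, and 288 to 444 FPKM in KO libraries and 421 to 596 FPKM in WT libraries at rest. The 4 satellite cell markers were lower without overlap in both conditions, at 3.09 to 6.46 FPKM in KO libraries and 7.88 to 8.92 FPKM in WT libraries after exercise, and at 4.06 to 5.46 FPKM in KO libraries and 8.20 to 9.32 FPKM in WT libraries at rest. The 5 Schwann cell markers came to 15.5 to 18.7 FPKM in KO libraries and 19.5 to 22.5 FPKM in WT libraries after exercise, without overlap, and to 22.7 to 24.5 FPKM in KO libraries and 23.6 to 29.1 FPKM in WT libraries at rest, with overlap. Sums of the endothelial, adipocyte and erythroid markers overlapped in both conditions. By limma, 1 myofibre marker (Des) rose in each condition and 1 immune marker (Cd68) after exercise. No fibroblast, endothelial, adipocyte, erythroid, Schwann or satellite cell marker passed limma. Only 4 of the 7 immune, 2 of the 4 satellite cell, 3 of the 5 adipocyte, 3 of the 5 Schwann and 5 of the 6 erythroid markers were tested. The authors' deposited q, at or under 0.05, called 2 fibroblast, 2 immune and 1 satellite cell marker lower at rest. After exercise that q called 4 immune markers higher and 2 satellite cell markers lower. It called Des higher in both conditions. At rest the satellite marker Pax7, the immune marker Cd14 and the adipocyte marker Plin1 were at 0 FPKM in at least 1 library. The part of these cell types in the differences of the ribosomal protein genes was not tested.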

How the data were processed

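RNA-seq values of 12 quadriceps libraries, 3 in each of 4 groups, were read from 2 deposited tables, 1 per condition, taken as rest or exercise from the tables' names. The authors deposited FPKM per library, with p-values and q-values of their own genotype comparison. TopHat2, Bowtie, Cuffdiff and HOMER with mm9 are named, per the submitters' processing notes; versions, annotation, strandedness and filters are not given in the sources used here. The 4 GRO-seq libraries were not analysed here. No per-sample column was left unmatched.

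Each table held 24354 rows, and 27 names that had become dates after exercise were left out. Genes with an authors' p under 1 were tested (9204 at rest, 9037 after exercise). Over such rows a Benjamini-Hochberg adjustment of the p-values gave the authors' deposited q-values to within 0.00011. limma 3.58.1 in R 4.3.3 was fitted to log2(FPKM + 1) within each table, with variances moderated along a trend, two-sided, and p-values adjusted over all genes. An interaction was fitted over all 12 libraries. An exact permutation test of 3 against 3 libraries could not pass 0.05 and was not used. The fits were tested on simulated data. Tables were written with Python 3.11.15, pandas 2.3.3 and numpy 2.4.6.

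The genes and lists were chosen with earlier results of these data known. Named were the 5 highest and 3 lowest genes by mean FPKM, the leading 3 per structural class, genes called by limma or by the authors' q, the 5 largest differences each way in each condition, and called or most abundant genes of the other lists. Other genes named for not overlapping in both conditions, or for their interaction, their family or their position, were chosen after their values were seen. So was Mrpl44, named because its difference after exercise was close to that of Mrps27. Names, neighbours and promoter windows came from RefSeq, GRCm38.p6, which differs from mm9, and all 77 symbols matched.

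Alternatives were other pseudocounts (0.1 and 5), a filter at a mean of 1 FPKM, no filter, quantile normalization, median centring, no variance trend, a replicate block, a fit over all libraries, the authors' q, and leaving out each library. Depth is unknown, so precision is given by the spread between libraries.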

Additional observations from a re-analysis of the deposited data

How the results depend on the processing

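Of the 77 genes, 2 passed at rest and 1 after exercise. At rest the count was 1 with no filter, with quantile normalization, with median centring and with no variance trend, and 0 with the replicate block. After exercise it was 0 with no filter, with no variance trend and with the replicate block, 2 in the fit of all 12 libraries and 3 by the q of the authors' deposited table. Over all tested genes, the limma counts of 434 at rest and 337 after exercise became 98 and 53 with no filter, 52 and 170 with the replicate block, and 678 and 592 in the fit of all 12 libraries, against 998 and 865 by the q of the authors' deposited table. The interaction called 8 genes with no filter. Quantile normalization moved the median difference of the 77 genes to 0.0428 at rest, and that of the interaction to -0.0056. With any single library left out, 0 to 1 of the 77 passed at rest and 0 after exercise. Of all genes 20 to 292 then passed at rest (20 without WT library 2, 54 without KO library 3, 82 without KO library 1, 195 without KO library 2, 269 without WT library 1), 70 to 103 after exercise, and 0 to 1 for the interaction. The median difference of the 77 genes lay between 0.0529 and 0.11 at rest, between -0.0402 and 0.0461 after exercise, and between -0.12 and -0.019 for the interaction. Leaving out 1 library was followed gene by gene only for genes named for their size, their calls or their interaction. Of their differences that had not passed, 3 turned sign: Mrps2 at rest without KO library 3 (-0.0157, against up to 0.155 without another library), and after exercise Mrpl30 without KO library 3 (-0.0462, up to 0.14) and Chchd1 without KO library 2 (-0.0433, up to 0.26). Their cause was not tested. Deviations of libraries with the same number correlated at -0.00 to 0.05 at rest and -0.33 to 0.03 after exercise, so the numbers were not taken to pair the libraries. Across different numbers they correlated at -0.13 to 0.08 at rest and -0.14 to 0.36 after exercise. The highest was KO library 3 with WT library 2 after exercise, and its cause was not tested. With the block, Mrps18b had limma adjusted p of 0.0717 at rest and 0.112 after exercise. Fewer libraries lower what a test can call.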
